A study of Arabidopsis thaliana with 6 samples.

Results

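UDP-glycosyltransferases, named UGT with a family number, a subfamily letter and a gene number, move a sugar from a UDP-sugar onto a small acceptor molecule. In plants the acceptors include hormones such as auxin, cytokinin, abscisic acid and salicylate, phenylpropanoids, flavonoids, glucosinolate precursors, sterols and foreign compounds, and the sugar usually makes the acceptor more soluble, storable in the vacuole or inactive. The genes described here are all rows of the count tables whose symbol is UGT followed by digits, capital letters and digits. There were 58 such rows among 32921 named rows, in 13 families, and 47 of them had a mean of at least 0.5 CPM (counts scaled to a common library total) over all libraries and were tested. Rows under another symbol whose RefSeq product names a UDP-glycosyltransferase were not chosen by this rule and are given separately at the end.

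The samples were whole wild-type seedlings of Arabidopsis thaliana, from seeds sown on MS agar plates that were sealed and kept dark in foil. For 48 h they received either white noise at 10 dB on average, the control with 3 libraries, or recorded city traffic noise at 75 dB on average, also with 3 libraries. Type and level of sound differed together between the groups and cannot be told apart. The labels do not say whether replicates were separate plates or seed batches, so the p-values rest on the spread among these libraries alone, which may be technical, and in whole seedlings fewer cells of a type and less RNA per cell cannot be told apart.

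Libraries held 17540009 to 20780363 counts on named rows, so that 3 counts correspond to 0.144 to 0.171 CPM. Control replicate 3 stood apart: it had counts on 16128 named rows, against 20026 to 20287 in the others, and its mean correlation with them was 0.831, against 0.888 to 0.901 (Pearson's r of log2(CPM + 1), across rows, which are not independent replicates). Of the 47 tested UGT genes, 40 had a count in control replicate 3 and 44 or 45 in each other library, and 4 were at 0 in that library alone. As a check of the tissue, 7 cotyledon and leaf markers summed to 4773 to 8835 CPM and 7 root markers to 8028 to 9497 CPM per library. Nearly all of the root sum was PYK10, at 7964 to 9427 CPM. SHR had 30.7 to 48.2 CPM and SCR 10.9 to 25.5 CPM, while PLT1, PLT2, WOX5 and PRP3 had at most 9.05 CPM in any library. The sums were 0.673 to 8.97 CPM for 8 dry seed markers, of which SESA2, SESA4 and CRC were at 0 throughout, and 0.699 to 11.5 CPM for 6 flower markers, of which AP1 was. The highest leaf marker sum was in control replicate 3, and its part in the results was not tested. Single leaf markers differed in direction. CAB1 had 359 to 879 CPM in control and 1100 to 1336 CPM in traffic noise, and RBCS3B 1648 to 1843 and 1206 to 1396 CPM.

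Most plant UGT proteins share a signature of 44 residues near the carboxyl end that holds the UDP-sugar. The coding stretch of this signature is shown for 3 sets of genes described below, to let their likeness be seen. It lies upstream of the transcript ends that the libraries read, so it does not show how far reads can be assigned to a copy. Each stretch has 132 bases, is read 5′ to 3′ on the coding strand of the RefSeq TAIR10.1 assembly, and has in capitals the 18 bases of its conserved centre. The first set is the pair of abundant UGT85A genes with lower mean levels after traffic noise, UGT85A1 (chr1:7904103-7904234, minus strand) and UGT85A2 (chr1:7895308-7895439, minus strand).
UGT85A1: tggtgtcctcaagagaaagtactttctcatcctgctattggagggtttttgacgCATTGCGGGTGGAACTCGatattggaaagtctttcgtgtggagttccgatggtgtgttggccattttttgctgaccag
UGT85A2: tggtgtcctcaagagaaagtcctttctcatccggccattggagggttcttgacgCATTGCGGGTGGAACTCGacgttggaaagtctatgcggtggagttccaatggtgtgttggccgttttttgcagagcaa
The second set is the hydroxycinnamate enzymes UGT84A1 (chr4:8849279-8849410, minus strand), UGT84A3 (chr4:8853146-8853277, minus strand), UGT84A4 (chr4:8857377-8857508, minus strand) and UGT84A2 (chr3:7596928-7597059, plus strand), among which only UGT84A1 had groups that did not overlap.
UGT84A1: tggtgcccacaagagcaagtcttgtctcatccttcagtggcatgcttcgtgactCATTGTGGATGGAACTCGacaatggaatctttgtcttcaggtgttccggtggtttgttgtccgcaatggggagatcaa
UGT84A3: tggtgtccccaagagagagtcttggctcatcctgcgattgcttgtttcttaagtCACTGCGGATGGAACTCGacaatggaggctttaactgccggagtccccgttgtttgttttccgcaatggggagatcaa
UGT84A4: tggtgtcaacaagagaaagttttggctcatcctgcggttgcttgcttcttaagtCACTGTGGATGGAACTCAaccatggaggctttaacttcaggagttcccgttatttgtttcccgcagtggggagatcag
UGT84A2: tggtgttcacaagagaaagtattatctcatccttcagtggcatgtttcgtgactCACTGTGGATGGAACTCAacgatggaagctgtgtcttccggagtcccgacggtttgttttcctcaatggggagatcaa
The third set is UGT73B4 (chr2:6763006-6763137, plus strand) and UGT73B5 (chr2:6760060-6760191, plus strand), whose annotated loci overlap.
UGT73B4: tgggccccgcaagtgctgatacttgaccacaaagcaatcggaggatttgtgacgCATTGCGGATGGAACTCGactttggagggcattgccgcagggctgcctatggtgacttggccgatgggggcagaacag
UGT73B5: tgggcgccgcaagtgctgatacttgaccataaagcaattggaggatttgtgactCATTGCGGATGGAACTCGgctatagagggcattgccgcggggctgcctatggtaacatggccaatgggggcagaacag
All of these stretches lie in coding exons. An exact match to the centre was found once in 46 of the 58 members. All 46 stretches began with a tryptophan codon and 45 ended with a glutamine codon, the exception being UGT78D1, a flavonol 3-O-rhamnosyltransferase. Over the stretch UGT85A1 and UGT85A2 differed at 15 bases, UGT73B4 and UGT73B5 at 11, UGT84A3 and UGT84A4 at 16, and UGT84A1 differed from UGT84A2 at 18 and from UGT84A3 and UGT84A4 at 27 each.

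Expression of the UGT genes was uneven. UGT85A2 (AT1G22360), for which no acceptor is named here, had by far the most counts of the 58 members, and 6 members (UGT71B5, UGT73C1, UGT76D1, UGT78D3, UGT84B1 and UGT84B2) had no count in any library. UGT84B1 is an auxin glucosyltransferase and UGT73C1 a cytokinin and xenobiotic glucosyltransferase. A count of 0 allows up to 0.144 to 0.171 CPM in a library, counting error only. Another 5 members, UGT71B6, UGT73C2, UGT75B2, UGT85A3 and UGT85A7, had counts but stayed below the limit of 0.5 CPM. Around that limit, UGT71B8 lay just inside at 0.551 CPM and UGT84A3 at 0.595 CPM, and UGT85A7 just outside at 0.251 CPM and UGT75B2 at 0.210 CPM (means over 6 libraries, scaled to library totals). Because the libraries count transcript ends, and so 1 end per transcript whatever its length, CPM levels are set side by side between genes.

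**Figure D1:**
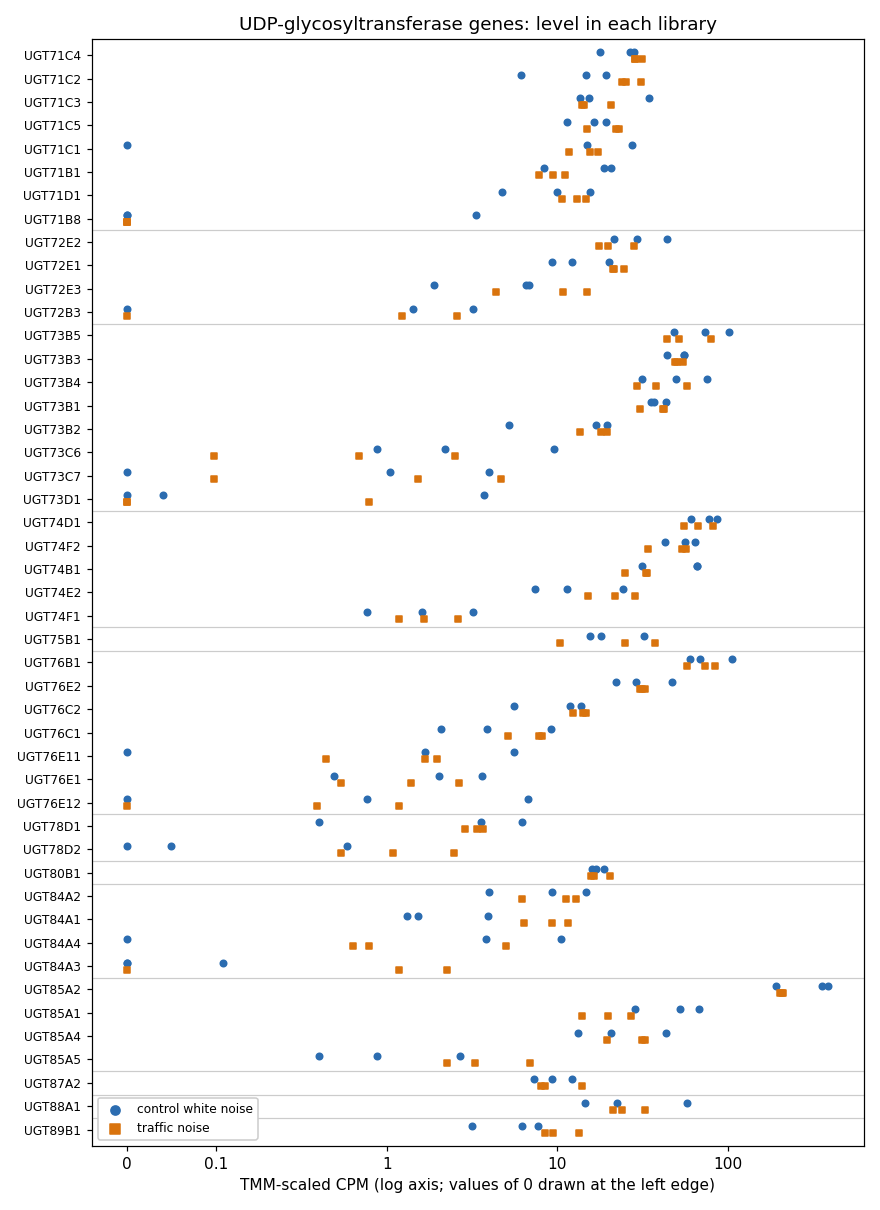
Level of each of the 47 tested UDP-glycosyltransferase genes in each library, as TMM-scaled CPM on a log axis, grouped by family number from UGT71 at the top to UGT89 at the bottom; circles are the 3 control libraries and squares the 3 traffic noise libraries, and values of 0 are drawn at the left edge. UGT85A2 lies above all others, and in 33 of 47 genes the control libraries spread more widely than the traffic noise libraries.

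The 8 most abundant members took 57.7% of the summed UGT level, and 27 of the 47 tested members had a mean of at least 10 CPM. All CPM values from here on are scaled by TMM factors, which correct library totals for a few dominant genes. UGT85A2 had 258 CPM on average over the 6 libraries. Next in order were UGT76B1 with control and traffic means of 78.0 ± 24.4 and 71.6 ± 13.1 CPM, UGT74D1 with 74.6 ± 12.6 and 67.7 ± 13.2 CPM, and UGT73B5 with 74.2 ± 26.6 and 58.3 ± 19.0 CPM (mean ± SD, n = 3 per group). These neighbours in the order did not differ beyond their spread. UGT73B3, UGT74F2, UGT73B4 and UGT74B1 followed. The annotated locus of UGT73B5 covers UGT73B4, so their counts are not independent. The ranks of both and the share of the 8 are therefore uncertain. The SD was 54.4% of the mean in control and 25.6% in traffic noise (medians over the tested members), and it was larger in control for 33 of 47.

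Between traffic noise and control, 0 of the 47 tested UGT genes passed the threshold. Counts were compared by quasi-likelihood F tests in edgeR at a Benjamini-Hochberg adjusted p of 0.05 over 19859 rows, which called 0.0151% of all rows, 3 in number and all lower. Fitted log2 fold changes were above 0 in 22 members and below 0 in 25, with a median of -0.03, against 52.3% above 0 and a median of 0.04 over all rows. The smallest adjusted p of a member was 0.493. At an unadjusted edgeR p under 0.05, 2 members were higher (UGT84A1 and UGT71C2), or 4.26% of those tested against 3.55% of all rows, and 3 were lower (UGT85A1, UGT74B1 and UGT85A2), or 6.38% against 4.05%; in either direction 7.6% of all rows passed. In 30 members the fold change was smaller than its standard error. All libraries of traffic noise lay above all control libraries in 5 members, or 10.6% against 8.85% of all rows, and below them in 1, or 2.13% against 7.18%. Limma-voom called 0 members, where it called 0.0906% of all rows, and DESeq2 called 0 of the 10 members for which it gave an adjusted p, where it called 5.67% of such rows.

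**Figure D2:**
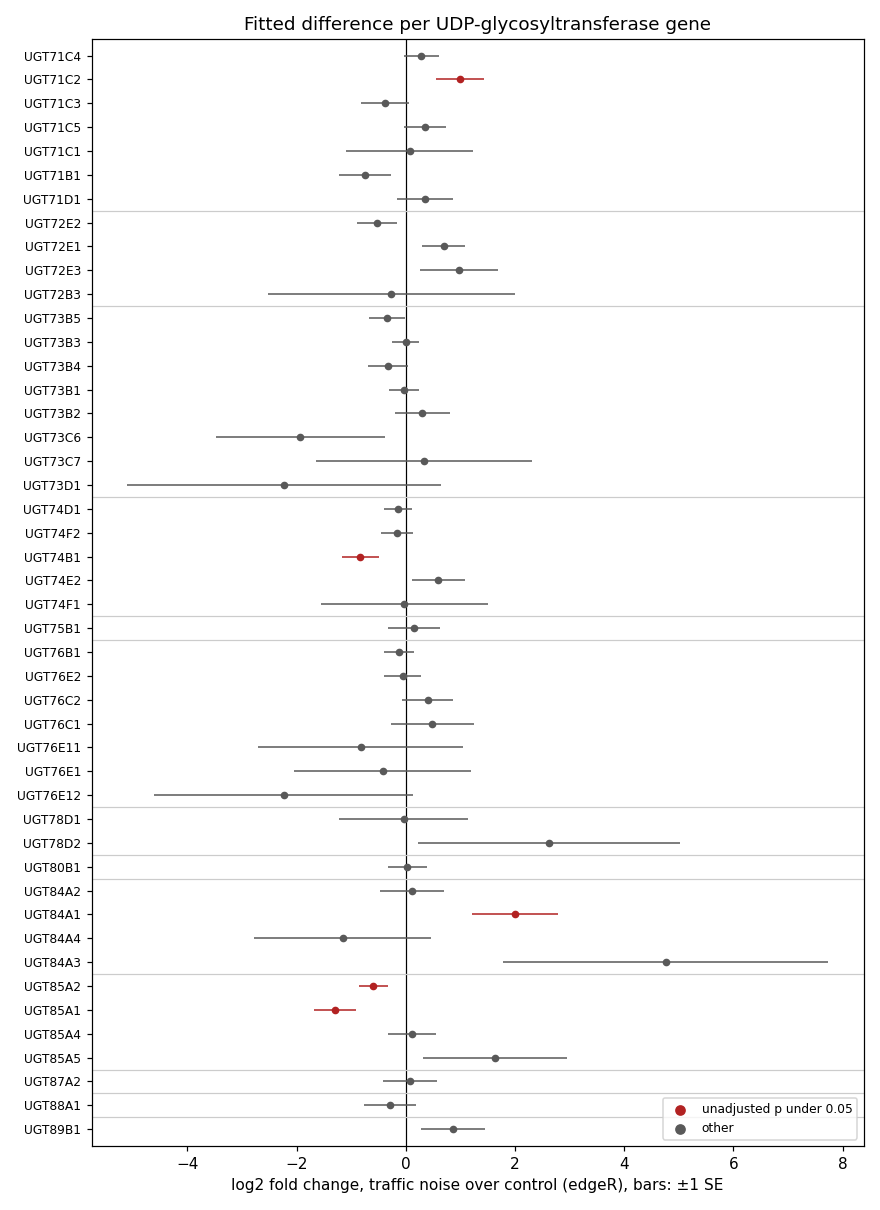
Fitted log2 fold change of traffic noise over control for 46 tested members, with bars of ±1 standard error (edgeR); UGT71B8, at 0 in all traffic noise libraries, is left out. The 5 members with an unadjusted p under 0.05 are marked, and the widest bars belong to genes of a few CPM or less.

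The member with the smallest p was UGT85A1 (AT1G22400), which glucosylates the cytokinin trans-zeatin. Its level was 52.3, 28.4 and 67.5 CPM in control replicates 1 to 3 and 13.8, 19.9 and 26.8 CPM under traffic noise. The groups did not overlap, but control replicate 2 lay within 2 CPM of the highest traffic noise library. The means were 49.4 ± 19.7 and 20.2 ± 6.49 CPM, a 2.45-fold lower level (log2 fold change -1.29 ± 0.38, edgeR unadjusted p = 0.00622, adjusted p = 0.493, and DESeq2 adjusted p = 0.0534). UGT85A2 had 355, 191 and 387 CPM under white noise and 210, 207 and 201 CPM under traffic noise. The traffic noise libraries were close together and lay above control replicate 2 but below the other control libraries, so the groups overlapped (log2 fold change -0.59 ± 0.27, edgeR adjusted p = 0.653). Both genes lie on chromosome 1 in an array of 5 UGT85A genes. Of its others, UGT85A5 had 2.70, 0.875 and 0.403 CPM under white noise and 2.27, 6.89 and 3.27 CPM under traffic noise (log2 fold change 1.64 ± 1.32, edgeR adjusted p = 0.902, and 2.69 without control replicate 1), and UGT85A3 and UGT85A7 were not tested. The longest run that the last 300 transcript bases of UGT85A2 shared with any other UGT transcript was 24 bases, with UGT85A5.

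UGT74B1 (AT1G24100) encodes the S-glucosyltransferase that makes desulfoglucosinolates, the step before sulfation in glucosinolate synthesis. It stood at 65.3, 31.2 and 65.9 CPM under white noise and at 24.9, 33.3 and 33.0 CPM under traffic noise. As with both UGT85A genes, control replicate 2 lay with the traffic noise libraries and control replicates 1 and 3 lay well above (log2 fold change -0.83 ± 0.34, edgeR unadjusted p = 0.03003, adjusted p = 0.619). Without control replicate 2, an alternative chosen after the data were seen, DESeq2 called 4 members, where it called 5.62% of rows with an adjusted p: UGT85A2 (log2 fold change -0.87, DESeq2 adjusted p = 0.000262), UGT85A1 (-1.60, 0.0077), UGT74B1 (-1.13, 0.0152) and UGT84A1 (2.65, 0.0176). In edgeR 0 members passed without that library. Without control replicate 3 the log2 fold changes were -0.9986 for UGT85A1, -0.41 for UGT85A2 and -0.67 for UGT74B1.

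**Figure D3:**
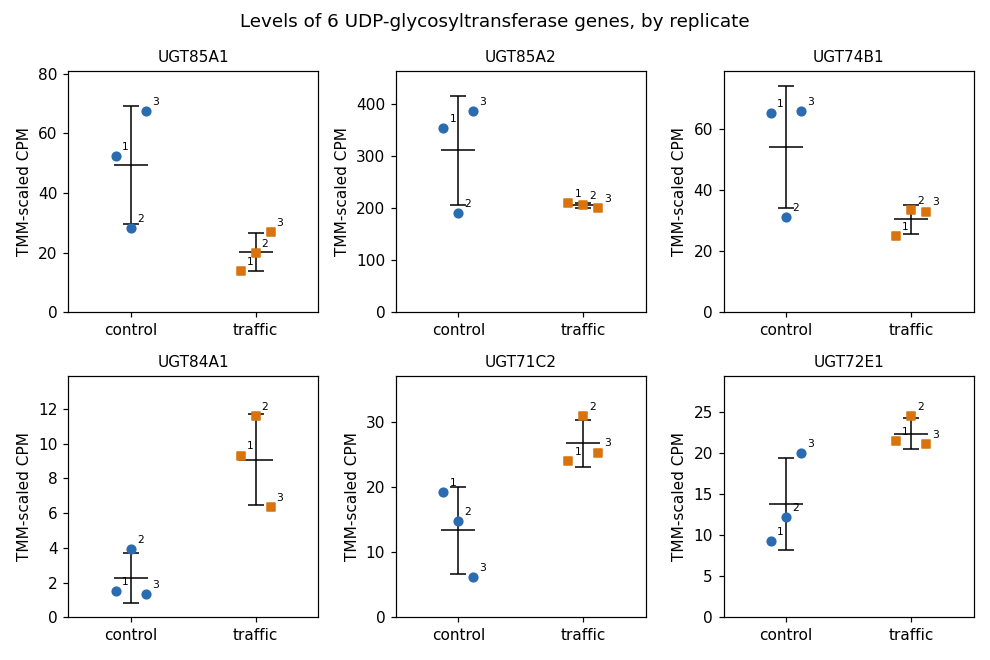
TMM-scaled CPM of 6 genes in each library, with the replicate number beside each point and the mean ± SD of each group (n = 3). For UGT85A1, UGT85A2 and UGT74B1, control replicate 2 sits near the traffic noise libraries; for UGT84A1, UGT71C2 and UGT72E1 every traffic noise library lies above every control library.

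Among the enzymes of monolignols and hydroxycinnamates, 5 of 7 tested members had fold changes above 0, and 0 passed. UGT84A1 (AT4G15480), which makes glucose esters of hydroxycinnamates, had 1.52, 3.94 and 1.32 CPM under white noise and 9.31, 11.6 and 6.35 CPM under traffic noise. Its groups did not overlap, and its mean was 4.02-fold higher after traffic noise (2.26 ± 1.45 against 9.08 ± 2.62 CPM, log2 fold change 2.004 ± 0.79, edgeR unadjusted p = 0.0277, adjusted p = 0.614). Without control replicate 2 the edgeR log2 fold change was 2.67. The 3′ end of UGT84A1 lies within AT4G15475, a gene on the other strand that overlaps it by 69 bases. AT4G15475 held 190, 228 and 154 counts in control and 372, 599 and 370 in traffic noise, where UGT84A1 held 31, 72 and 23, and 189, 235 and 130 counts. Its log2 fold change was 1.10 ± 0.40 (edgeR unadjusted p = 0.0186), and its part in the counts of UGT84A1 was not tested. UGT84A3, beside UGT84A1 on chromosome 4, had 0, 0.109 and 0 CPM under white noise and 2.27, 1.18 and 0 CPM under traffic noise. UGT84A4, the next in that array, had 3.82, 0 and 10.5 CPM under white noise and 0.788, 4.97 and 0.635 CPM under traffic noise. UGT84A2 (AT3G21560), the sinapate glucosyltransferase, had 14.7, 9.35 and 3.97 CPM under white noise and 11.2, 12.8 and 6.20 CPM under traffic noise (log2 fold change 0.11 ± 0.58). The groups of these 3 genes overlapped.

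The UGT72E genes act on the lignin precursors and their aldehydes. UGT72E1 (AT3G50740) had 9.27, 12.2 and 20.02 CPM under white noise and 21.5, 24.5 and 21.1 CPM under traffic noise, with no overlap (log2 fold change 0.70 ± 0.40, edgeR adjusted p = 0.752). UGT72E2 (AT5G66690), which glucosylates coniferyl alcohol, had 29.2, 43.9 and 21.5 CPM under white noise and 28.3, 19.8 and 17.5 CPM under traffic noise, and the groups overlapped (log2 fold change -0.53 ± 0.36, edgeR adjusted p = 0.846). UGT72E3 (AT5G26310), which acts on sinapyl alcohol, had 6.57, 6.83 and 1.90 CPM under white noise and 14.9, 10.8 and 4.40 CPM under traffic noise (log2 fold change 0.98 ± 0.71, edgeR adjusted p = 0.861). UGT72E2 and UGT72E3 are the member pair with the highest coding identity, 89.5%, and their last 300 transcript bases share no run over 26 bases.

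UGT71 was a family of mixed direction, with 5 of 8 tested members above 0. UGT71C2 (AT2G29740) had 19.3, 14.7 and 6.16 CPM under white noise and 24.0, 30.8 and 25.3 CPM under traffic noise, without overlap (log2 fold change 0.996 ± 0.44, edgeR unadjusted p = 0.0433, adjusted p = 0.649). The lowest control value was again that of replicate 3, and without it the log2 fold change was 0.65. UGT71C1, its neighbour, had 14.95, 27.3 and 0 CPM under white noise and 15.5, 17.2 and 11.7 CPM under traffic noise. UGT71C5, an abscisic acid glucosyltransferase, had a log2 fold change of 0.35 ± 0.38, and UGT71C3, which glucosylates methyl salicylate, one of -0.37 ± 0.44. UGT71C4 also had groups that did not overlap (28.1, 26.6 and 17.8 CPM in control, 28.6, 28.5 and 31.5 CPM under traffic noise), but its log2 fold change of 0.29 ± 0.31 was smaller than its standard error. UGT71B1 had 8.38, 18.7 and 20.5 CPM under white noise and 9.41, 7.78 and 11.1 CPM under traffic noise (log2 fold change -0.75 ± 0.47, edgeR adjusted p = 0.805). UGT71B8 was at 3.34 CPM in control replicate 3 and at 0 in the other 5 libraries, so its fitted value depends on the fit's small added count and is not given. The member medians are the same with UGT71B8 set to the bound that 3 counts per library allow.

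UGT73B3, UGT73B4, UGT73B5, UGT76B1 and UGT74F2, members known from stress or salicylate metabolism, were among the 8 most abundant. UGT73B3 (AT4G34131), known for its role in redox and pathogen responses, had 55.2, 44.004 and 54.9 CPM under white noise and 48.6, 54.7 and 50.5 CPM under traffic noise (log2 fold change -0.00 ± 0.25). UGT73B5 had 73.6, 101 and 48.0 CPM under white noise and 79.8, 43.8 and 51.3 CPM under traffic noise (log2 fold change -0.35 ± 0.33), and UGT73B4, known for conjugating nitroaromatic pollutants, had 49.7, 74.7 and 31.5 and then 57.2, 29.4 and 37.6 CPM (-0.33 ± 0.37). These values are not independent, since the annotated locus of UGT73B5 covers all 1866 bases of UGT73B4 on the same strand and the last 300 transcript bases of UGT73B4 share a run of 261 bases with UGT73B5. UGT73B4 counts were 65.6% to 73.9% of UGT73B5 counts in the 6 libraries, and the counts of UGT73B5 exceeded those of UGT73B4 by 488, 482 and 287 in control and by 458, 292 and 282 in traffic noise. Of 10 listed stress and defence responsive genes 8 had a row and were tested, 4 above 0 and 4 below. The 4 tested salicylate members were all below 0, each by less than its standard error, among them UGT76B1 (AT3G11340, log2 fold change -0.12 ± 0.28), which acts on isoleucic acid and salicylate, and UGT74F2 (AT2G43820, -0.17 ± 0.29), which makes the salicylate glucose ester.

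Members that act on auxins, cytokinins and brassinosteroids showed no shared direction. UGT74E2, an indole-3-butyrate glucosyltransferase, had 11.4, 24.3 and 7.36 CPM under white noise and 21.6, 15.2 and 28.5 CPM under traffic noise (log2 fold change 0.60 ± 0.48, and 1.21 without control replicate 2), while UGT74D1, which acts on oxidised auxin, had one of -0.14 ± 0.25. The cytokinin N-glucosyltransferases UGT76C1 and UGT76C2, neighbours on chromosome 5, had log2 fold changes of 0.48 ± 0.76 and 0.40 ± 0.47, where that of the O-glucosyltransferase UGT85A1 was -1.29. For UGT76C1 the value was 1.24 without control replicate 1 and 0.11 without control replicate 3. UGT73C6, which acts on brassinosteroids and flavonols, had 2.21, 0.875 and 9.55 CPM under white noise and 0.690, 2.51 and 0.0977 CPM under traffic noise (log2 fold change -1.93 ± 1.55, edgeR adjusted p = 0.902). This value was -0.48 without control replicate 3 and -3.38 without traffic replicate 2, and the 3′ end of UGT73C6 shares a run of 76 bases with DOGT1. AT2G36792, on the other strand, overlaps UGT73C6 by 1694 bases, its 3′ end included. Both held 45 counts in control replicate 1 and 166 in control replicate 3, and their counts differed in the other libraries. The part of AT2G36792 in the counts of UGT73C6 was not tested. Among flavonoid enzymes, UGT78D1 had 6.23, 3.55 and 0.403 CPM under white noise and 3.3995, 2.86 and 3.66 CPM under traffic noise, and the 3-O-glucosyltransferase UGT78D2 had 0.588, 0.0547 and 0 CPM and then 1.08, 2.46 and 0.537 CPM. The sterol glucosyltransferase UGT80B1 had means of 17.1 ± 1.48 and 17.5 ± 2.43 CPM. UGT89B1 was the last of the 5 members whose traffic noise libraries all lay higher, with 6.23, 7.71 and 3.16 CPM under white noise and 8.47, 13.3 and 9.48 CPM under traffic noise (log2 fold change 0.87 ± 0.58, edgeR adjusted p = 0.833).

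As a whole the UGT genes held 0.127%, 0.110% and 0.128% of the counts on named rows in control and 0.112%, 0.106% and 0.106% in traffic noise. The 95% Wilson interval of control replicate 1 was 0.1257% to 0.1288% and covers counting error only. Control replicates 1 and 3 were highest, and control replicate 2 lay between traffic replicates 1 and 2, so the groups overlapped. UGT85A2 alone made up 27.4%, 17.4% and 29.9% of UGT counts in control and 19.1%, 19.2% and 19.7% in traffic noise (Wilson interval of the highest 29.3% to 30.5%). Without UGT85A2 the TMM-scaled sum was 942, 911 and 906 CPM under white noise and 891, 868 and 819 CPM under traffic noise. The groups did not overlap on this scale, a split chosen after the values were seen. On library totals, the scale of the shares above, traffic replicate 1 lay above control replicate 3, so the groups overlapped.

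**Figure D4:**
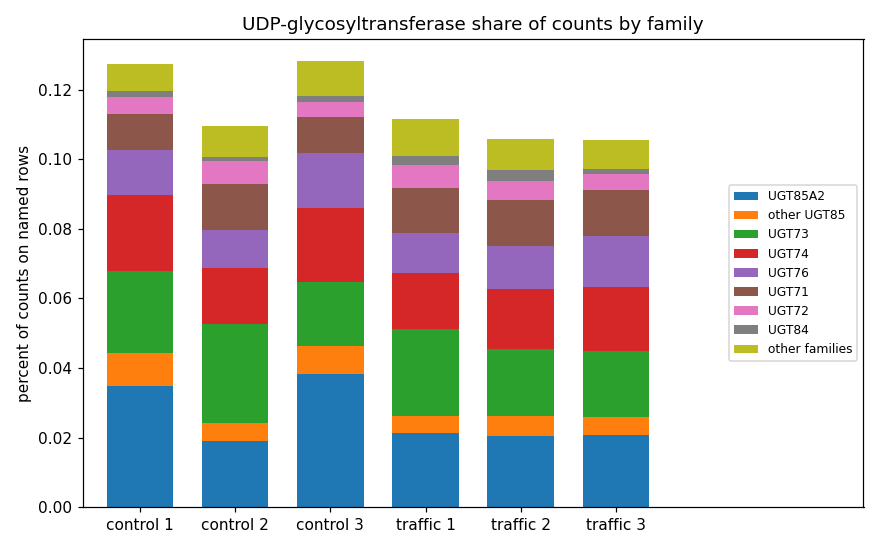
Counts on the UDP-glycosyltransferase rows as a percent of counts on named rows in each library, stacked by family, with UGT85A2 drawn apart from the other UGT85 genes. The UGT85A2 segment is largest in control replicates 1 and 3, and the total runs from 0.106% to 0.128%.

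On the TAIR10.1 assembly 41 of the 58 members lie in 16 arrays, in which genes of the same family start within 20000 bases of the next. Levels within an array could be far apart: in the UGT85A array mean levels ran from 0.0971 CPM for UGT85A3 to 258 CPM for UGT85A2, UGT74F2 had 51.0 CPM beside 1.84 CPM for UGT74F1, and UGT76E2 had 32.02 CPM beside 1.78 CPM for UGT76E1. By contrast UGT71C3, UGT71C4 and UGT71C5 lay at 18.6, 26.8 and 17.8 CPM. BOA, on the other strand, overlaps UGT76E1 by 1896 bases, its 3′ end included. BOA held 611 to 1191 counts per library and UGT76E1 10 to 66, and the part of BOA in the level of UGT76E1 was not tested. At the 3′ end, where these libraries are read, 132 genes were compared, the members and genes described below under other symbols. A run of at least 75 bases was shared by 5 members with another of them (UGT73B4, UGT73B5, UGT71D1, UGT78D3 and UGT73C6), and the counts of these members are uncertain. In 5 members a locus on the other strand had counts within 10% of theirs in every library, namely UGT73B1, UGT74D1, UGT71B6, UGT75B1 and UGT85A4, the last 3 with equal counts in all 6, so reads of both strands cannot be told apart in those genes. UGT73C6, UGT74F1, UGT76E11 and UGT76E12 had counts equal to those of such a locus in 2, 4, 3 and 4 libraries, including libraries at 0 in both, so the same doubt holds there in part.

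Genes that work beside the UGTs also gave no call in edgeR. Another 73 rows carry other symbols but have a RefSeq product that names a UDP-glycosyltransferase. Of these, 53 were tested, 30 above 0 and 23 below, with a median log2 fold change of 0.14 and 0 called. The list follows the product name alone. It includes GBSS1, DGD1, LEW3 and SETH2, and the acceptors of its rows were not checked. Over all rows with an adjusted p, DESeq2 called 5.62% without control replicate 2. Without control replicate 3 it called 129 higher and 79 lower of 18810 such rows. With all libraries DESeq2 gave an adjusted p to 3 of the 53 rows of the list, and to 4072 of all rows, and called 0 of the list. It called 3 of the list without control replicate 2 and 2 without control replicate 3. In those fits 19023 and 18810 of all rows had an adjusted p. The ones with the smallest p in each direction were AT3G55710, at 0 in every control library and at 1.99 ± 1.51 CPM under traffic noise (edgeR adjusted p = 0.595), AT1G75420, at 0.122 ± 0.111 and 3.65 ± 1.66 CPM (0.617), AT3G46650, at 4.74 ± 3.91 and 1.23 ± 0.535 CPM (0.808), and AT4G36770, at 6.17 ± 7.01 and 3.03 ± 0.974 CPM (0.946). GT72B1, which RefSeq also calls UGT72B1 and which conjugates chlorinated pollutants and lignin precursors, stood at 86.8 ± 11.4 and 93.0 ± 3.04 CPM, above every UGT symbol but UGT85A2. DOGT1, also called UGT73C5 and known for inactivating brassinosteroids and a fungal toxin, stood at 8.40 ± 3.64 and 4.81 ± 2.09 CPM; both were looked up after the rule had left them out.

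The UDP-sugar supply list had 20 of its 25 names as rows, all tested, with 10 above 0 and 10 below and a median log2 fold change of 0.03. With all libraries DESeq2 gave an adjusted p to 5 of them and called 0. It called 1 without control replicate 2 or without traffic replicate 1. Over all rows with an adjusted p it called 5.62% without control replicate 2, and 64 higher and 136 lower of 2910 without traffic replicate 1. UXS3, which makes UDP-xylose, had 361 ± 22.3 and 238 ± 51.2 CPM (log2 fold change -0.60 ± 0.22, edgeR adjusted p = 0.584), and RHM1, a UDP-rhamnose synthase, 106 ± 31.3 and 64.5 ± 7.91 CPM (-0.71 ± 0.27, 0.592). UGE1, which interconverts UDP-glucose and UDP-galactose, had 28.0 ± 5.46 and 44.9 ± 10.8 CPM (0.68 ± 0.30, 0.653), and UGE2 0.278 ± 0.481 and 2.64 ± 1.98 CPM (0.855). Of 40 beta-glucosidase rows, which include enzymes that remove the sugar again, 19 were tested, with 6 above 0, 13 below and a median of -0.18. The tested rows all carry BGLU symbols, and PYK10, the root marker above, is not among them. With all libraries DESeq2 gave an adjusted p to 4 of the 19. BGLU16 had 63.9 ± 23.6 and 133 ± 19.9 CPM (1.06 ± 0.30, edgeR adjusted p = 0.493) and was the only row of these lists that DESeq2 called with all 6 libraries (adjusted p = 0.0304), where it called 5.67% of all rows with an adjusted p. DESeq2 called 0 beta-glucosidases without control replicate 3, traffic replicate 2 or traffic replicate 3. Over all rows with an adjusted p, these fits called 129 higher and 79 lower of 18810, 11 and 70 of 19818, and 14 and 85 of 19716. Limma-voom gave BGLU16 an adjusted p of 0.128. BGLU21 had 46.6 ± 16.8 and 24.1 ± 10.3 CPM (-0.95 ± 0.39, edgeR adjusted p = 0.625). Of 21 rows for hormone inactivation by other routes 13 were tested, with 9 above 0, 4 below and a median of 0.30. With all libraries DESeq2 gave an adjusted p to 2 of the 13. In this last list GH3.17, which conjugates auxin to amino acids, had 41.1 ± 10.4 and 56.0 ± 12.5 CPM (edgeR adjusted p = 0.833), CKX5, which degrades cytokinin, 23.2 ± 6.72 and 33.0 ± 14.0 CPM (0.900), and CYP707A3, which degrades abscisic acid, 9.13 ± 3.74 and 4.10 ± 2.44 CPM (0.822).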

How the data were processed

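RNA of 6 libraries, 3 control and 3 traffic noise, was prepared with a Lexogen QuantSeq kit, per the labels' protocols, whose reads come from the 3′ ends of transcripts. The authors deposited 1 table of raw counts per gene symbol for each library, with whole numbers and no normalization. Bowtie2, bedtools and TAIR10 are named in the submitters' processing notes, without versions or roles; the annotation, the strand setting and the treatment of reads with several matches were not given in the sources used here. Rows without a gene name held 0.0431% to 0.0886% of counts and were left out.

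All 19859 named rows with a mean of at least 0.5 CPM were fitted together with edgeR's quasi-likelihood F test (robust, TMM factors, group only), and p-values were adjusted by Benjamini-Hochberg over all of them. Standard errors are the size of the log2 fold change divided by the root of F. DESeq2, limma-voom, other scalings and filters, a replicate block and leaving out each library were alternatives. Scripts were tested on simulated data. Symbols of all 58 members matched 1 locus of RefSeq's TAIR10.1, from which coordinates and coding sequences were read; the deposited tables hold no coordinates. The centre of the signature was searched as an exact run of histidine, cysteine, glycine, tryptophan, asparagine and serine codons in the longest coding sequence. Named genes were, per direction, the 8 members with the smallest p, the 8 most abundant, and up to 3 per acceptor or stress list, 28 in all, plus up to 2 per direction in each other list. Other members named for non-overlap, arrays or sequence were chosen after their values were seen. The members and lists were chosen with earlier results of these data known. Trehalose-phosphatase family products were kept out of the list of other UDP-glycosyltransferase products. Versions were edgeR 4.0.16, limma 3.58.1 and DESeq2 1.42.0 under R 4.3.3, beside Python 3.11.15.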

Additional observations from a re-analysis of the deposited data

How the results depend on the processing

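No UGT gene passed the adjusted threshold in any edgeR or limma-voom fit run, or in DESeq2 with all libraries. With all libraries 10 members had a DESeq2 adjusted p. DESeq2 without control replicate 2 called 4 members, where it called 5.62% of rows with an adjusted p. It called 0 members without any other library. Over all rows with an adjusted p, DESeq2 called 68 higher and 30 lower of 18966 without control replicate 1. Without control replicate 3 these were 129 and 79 of 18810. Without traffic replicates 1 to 3 they were 64 and 136 of 2910, 11 and 70 of 19818, and 14 and 85 of 19716. The median log2 fold change of the members lay between -0.07 and 0.10 when a library was left out in edgeR, and between -0.08 and 0.08 in DESeq2. The difference in UGT share of counts, traffic noise minus control, then lay between -0.02 and -0.0107 percentage points.

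With the replicate number as a block in edgeR, 0 members were called and their median log2 fold change was 0.03. Same-numbered libraries did not deviate together (r = -0.0023, 0.0309 and 0.0513 across rows, Pearson), so the numbers were not taken as pairs.

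Of 28 named members, 21 kept the sign of their log2 fold change in every setting compared for them. DESeq2 with a library left out was not part of this comparison. UGT73B3 turned positive with library totals only (0.0287), limma-voom (0.0018) and the replicate block (0.0026), and ranged from -0.1032 to 0.0516 with a library left out. UGT78D1 turned positive with library totals only (0.0004), limma-voom (0.5422) and the replicate block (0.4941), and ranged from -0.5636 to 0.7391. With a library left out, the others crossed 0 within -0.6338 to 0.0285 for UGT73B4 (positive without control replicate 2), -0.6119 to 0.1708 for UGT71C3 and -0.2829 to 0.1588 for UGT76B1 (both without control replicate 3, UGT76B1 also without traffic replicate 1), -0.3101 to 0.0323 for UGT74F2 (without traffic replicate 3), and -0.0917 to 0.1112 for UGT80B1 (negative without control replicate 3 or traffic replicate 1). The cause was not tested. The spread between libraries limits the precision (a biological coefficient of variation of 0.815 over all rows).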
